A study of Mus musculus with 26 samples.

Results

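The comparison described here sets 5 libraries labelled Notch1-/-Notch2-/- against 6 labelled Notch1-/-, 11 of the 26 libraries of the series, over every gene with enough counts to be tested, and asks what losing Notch2 changes in glioma cells that already lack Notch1. All 11 came from sorted GFP-positive cells of early mouse gliomas that were driven by PDGF and also lacked the tumour suppressor Trp53. GFP was expressed from a Cre reporter at the Rosa locus, while Rbpj was labelled wild type in both groups. For orientation, values are also given for tumours with intact Notch genes (control, n = 6), tumours labelled Notch2-/- (n = 5) and tumours labelled Rbpj-/- (n = 4), all of them lacking Trp53 too. The sources used here do not say in which cells Cre acted, which exons were deleted or how old the mice were. Nor do the labels tell whether each replicate is an animal of its own. The p-values therefore describe spread among these libraries, part of which may be technical.

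Notch1 and Notch2 are receptors that are cut on contact with a ligand on a neighbouring cell. The freed intracellular part enters the nucleus, binds the DNA-binding protein Rbpj and switches on target genes such as Hes1, Hes5 and Nrarp. In the brain the pathway holds neural stem cells and glial progenitors in an undifferentiated state, and because both receptors use Rbpj, one can stand in for the other at some targets. Adding Notch2 loss to Notch1 loss therefore removes a receptor that could have filled in, while Notch3 and Notch4 are not labelled as deleted.

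Total counts were 31593287 to 42378306 in Notch1-/- libraries and 35046873 to 44376594 in Notch1-/-Notch2-/- libraries. The summed level of 19 oligodendrocyte precursor markers, led by the PDGF receptor Pdgfra, was 12340 to 20490 counts scaled to library size (CPM) in the first group and 8568 to 16780 in the second. Markers of T and NK cells summed to at most 9.30 CPM, and 6 of their 13 markers, Cd3e among them, did not enter the test. Notch1-/- replicate 2 stood apart on the first principal component, at -98.03 against -45.23 to 56.71 in the other 10 libraries, and it had 21770 CPM of mature oligodendrocyte markers against 2429 to 6629 in the others. Replicates 1 and 2 of Notch1-/-Notch2-/- held 3428 and 3463 CPM of Xist, the RNA of the inactive X chromosome, and no count of the Y-linked gene Ddx3y. In the other 9 libraries Xist was at most 2.04 CPM and Ddx3y at least 52.5 CPM. Such a split was thus present in the double mutant group alone.

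The deleted genes kept reads in every library. Notch2, on chromosome 3 (chr3:98013538-98150367, build GRCm38.p6), was at 13.4, 11.4, 18.1, 16.3, 16.2 and 14.3 CPM in the Notch1-/- libraries and at 11.4, 11.8, 12.9, 10.5 and 9.43 CPM in the Notch1-/-Notch2-/- libraries. These ranges overlapped, and the log2 fold change of -0.41 ± 0.15 (SE) did not pass the test (edgeR quasi-likelihood test, Benjamini-Hochberg adjusted p = 0.274). In the libraries that still carried Notch1, Notch2 averaged 12.7 ± 2.73 CPM in control (SD, n = 6) and 7.35 ± 0.950 CPM in Notch2-/- (SD, n = 5), a log2 fold change of -0.79 ± 0.15 that passed with an adjusted p of 0.0200. Notch1 itself was at 88.2 to 214 CPM in Notch1-/- and 82.7 to 239 CPM in Notch1-/-Notch2-/-, with a log2 fold change of -0.05. Rbpj (0.12) and Trp53 (0.14) had log2 fold changes near 0 as well. Reads outside a deleted part are still counted, so these levels do not check the labels.

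Of 15617 genes tested, 100 (0.64%) changed when Notch2 loss was added. 52 (0.333%) rose and 48 (0.307%) fell, by a median of 2.54-fold. 68 of them changed more than 2-fold and 17 more than 8-fold. The groups did not overlap for 69 of the 100. Over all genes tested, every Notch1-/-Notch2-/- library lay above every Notch1-/- library for 125 (0.8%) and below for 152 (0.973%), and the median log2 fold change was -0.03. At an unadjusted p under 0.05 there were 1814 genes (11.6%), 790 higher (5.06%) and 1024 lower (6.56%). In bulk samples such as these, fewer cells that express a gene and less RNA per cell cannot be told apart.

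The number of changed genes rested on single libraries. It was 32, 141, 57, 38, 56 and 40 when Notch1-/- replicates 1 to 6 were left out in turn, and 57, 18, 199, 25 and 46 when Notch1-/-Notch2-/- replicates 1 to 5 were left out. 18 genes passed without each of the 11 libraries, and 8 of these also passed under each other setting in which they were tested: AI506816, Mtus1, Niban3, 5830417I10Rik, Hhipl2, Tnfrsf10b, Zfp459 and Gm6756. These 8 and Pamr1 were also the 9 of the 100 that passed when every library above 100 CPM of Xist was left out, which removed 6 of the 26, 2 of them double mutants, and left 10 changed genes. The genes that held are described first, and they were picked for that after the values were seen.

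**Figure D1:**
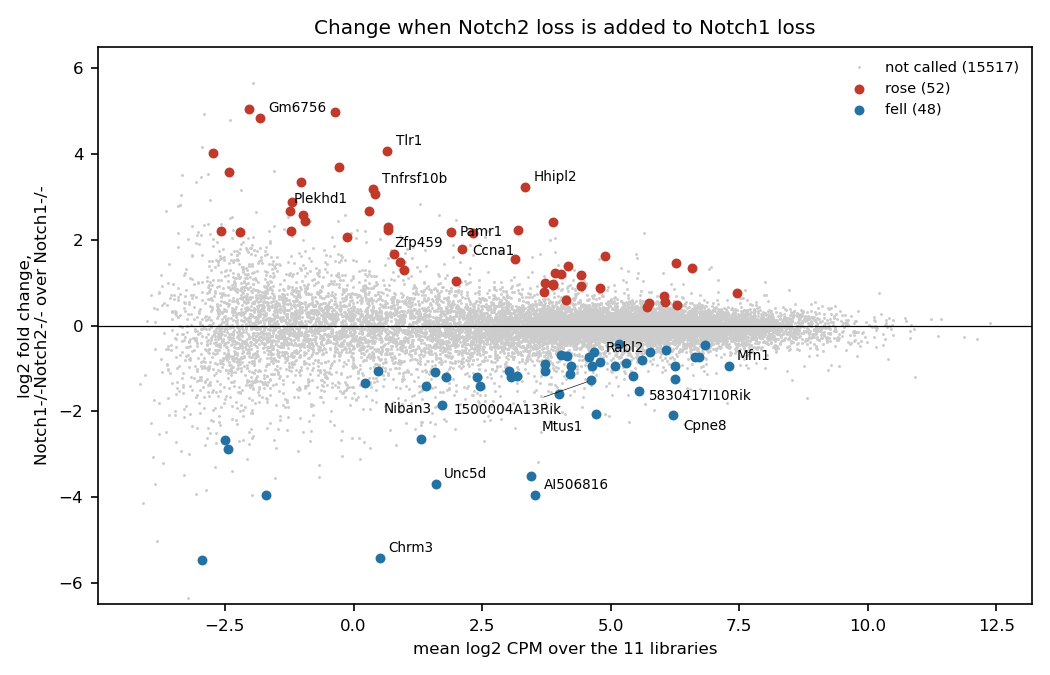
Each point is 1 of 15617 genes, with its mean log2 CPM over the 11 libraries on the horizontal axis and the log2 fold change of Notch1-/-Notch2-/- over Notch1-/- on the vertical axis. The 52 genes that rose are red, the 48 that fell are blue, and names mark the 18 that passed without each library in turn.

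Among the genes that fell, AI506816, a long non-coding RNA on chromosome 5 (chr5:23692261-23712667), fell 15.6-fold. It was at 4.02 CPM at the lowest, 52.9 at the median and 74.0 at the highest in Notch1-/-, and at 2.55, 3.26, 3.08, 2.81 and 3.51 CPM in Notch1-/-Notch2-/- (log2 fold change -3.96 ± 0.48, adjusted p = 1.07e-04). Notch1-/- replicate 3 held the 4.02 CPM and lay next to the double mutant libraries, while the other 5 were at 32.2 CPM or more. Control libraries averaged 58.4 ± 11.6 CPM (SD, n = 6), Notch2-/- libraries 37.5 ± 16.9 CPM (SD, n = 5) and Rbpj-/- libraries 1.27 ± 0.500 CPM (SD, n = 4). The RNA was thus low in the libraries without both receptors or without Rbpj and in that 1 Notch1-/- library. Vwa5a was also lowest on average in these 2 genotypes. It averaged 58.8 ± 17.8 CPM in control, 47.5 ± 50.7 in Notch1-/-, 4.19 ± 3.10 in Notch1-/-Notch2-/- and 8.24 ± 4.58 CPM in Rbpj-/- (SD), with an adjusted p of 0.00937 for the fall of 3.50 on the log2 scale. That call ended without Notch1-/-Notch2-/- replicate 2 (adjusted p = 0.0543). It also ended with replicate number as a block, with only the compared groups in the fit, and without the libraries above 100 CPM of Xist (adjusted p up to 0.330).

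Mtus1, which encodes a microtubule-associated tumour suppressor (chr8:40990912-41133983), fell 4.20-fold. Notch1-/- libraries held 33.4 CPM at the lowest, 48.1 at the median and 73.8 at the highest, against 8.64, 12.8, 18.4, 8.69 and 13.8 CPM in Notch1-/-Notch2-/- (-2.07 ± 0.27, adjusted p = 3.73e-04). All 5 double mutant libraries lay below the Notch1-/- range. Rbpj-/- libraries averaged 47.9 ± 3.57 CPM (SD, n = 4) and control libraries 44.4 ± 15.9 CPM (SD, n = 6). Niban3 had values of 4.33 to 8.66 CPM in Notch1-/- and 1.11 to 2.66 CPM in Notch1-/-Notch2-/-, again without overlap (-1.84 ± 0.29, adjusted p = 0.00178). Rabl2, a small GTPase related to the Rab family, fell less but with little spread, from 36.4 ± 2.56 CPM (SD, n = 6) to 20.1 ± 3.96 CPM (SD, n = 5), a log2 fold change of -0.85 ± 0.12. The mitofusin Mfn1, which fuses mitochondrial outer membranes, fell from 215 ± 41.3 to 111 ± 7.38 CPM (-0.96 ± 0.17). Rabl2 and Mfn1 lost their calls when every library above 100 CPM of Xist was left out, with adjusted p-values of at most 0.0588 and 0.265 over the alternatives.

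Unc5d, Chrm3 and Cpne8 also fell. Unc5d, a receptor for netrin that steers axons and migrating cells (chr8:28646717-29219671), was at 3.72 CPM at the lowest, 9.01 at the median and 20.4 at the highest in Notch1-/-. In Notch1-/-Notch2-/- it was at 0.887, 0.556, 1.12, 0.519 and 0.974 CPM (-3.70 ± 0.57, adjusted p = 0.00178). The 5 values all lay below the lowest Notch1-/- library. Unc5d averaged 24.7 ± 10.4 CPM in Rbpj-/- (SD, n = 4), the highest mean of the 5 genotypes, while the libraries without both receptors had the lowest. Chrm3, the M3 muscarinic acetylcholine receptor, fell 43.1-fold from a level that varied among Notch1-/- libraries between 0.875 and 22.4 CPM to 0.341, 0.106, 0.280, 0.0546 and 0.333 CPM (-5.43 ± 0.81, adjusted p = 0.00145). Control libraries averaged 1.10 ± 0.685 CPM (SD, n = 6), below the Notch1-/- mean of 9.84 ± 8.47 CPM (SD, n = 6). Cpne8, a copine that binds membranes when calcium rises, fell from 164 ± 64.5 to 38.3 ± 25.0 CPM (-2.10 ± 0.36, adjusted p = 0.00512). Its groups overlapped, since Notch1-/- replicate 2 was at 49.9 CPM. Of the 3, Unc5d and Chrm3 passed under each setting tested save the one without the Xist-positive libraries, where their adjusted p-values were 0.0901 and 0.0923, and Cpne8 also failed with only the compared groups in the fit.

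Of the genes that rose, Hhipl2, which resembles the hedgehog-interacting protein (chr1:183414463-183437053), rose 9.36-fold. The Notch1-/- libraries held 2.71 CPM at the lowest, 3.45 at the median and 5.31 at the highest. The Notch1-/-Notch2-/- libraries held 41.4, 32.1, 58.3, 24.7 and 21.4 CPM (3.23 ± 0.45, adjusted p = 6.30e-04). The ranges were far apart. The mean of 35.6 ± 14.8 CPM was next to that of the control libraries (35.8 ± 30.6 CPM, SD, n = 6), and Notch2-/- and Rbpj-/- libraries were at 43.2 ± 17.1 and 63.6 ± 29.8 CPM (SD), so that among the 5 genotypes Notch1-/- had the lowest mean.

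Tnfrsf10b, the death receptor for the ligand TRAIL and a target of p53 (chr14:69767472-69784411), rose 9.06-fold from a low level. It was at 0.279 CPM at the lowest, 0.458 at the median and 1.01 at the highest in Notch1-/-, and at 2.00, 8.58, 1.38, 7.18 and 4.46 CPM in Notch1-/-Notch2-/- (3.18 ± 0.49, adjusted p = 0.00165). The other 3 genotypes averaged 0.449 to 0.755 CPM, below each of the 5 double mutant libraries. Pamr1, a secreted protein with a peptidase-like domain, rose from 2.05 ± 0.504 CPM (SD, n = 6) to 9.32 ± 7.91 CPM (SD, n = 5), with 23.2 CPM in replicate 2 and 3.78 to 7.25 CPM in the other 4 (2.18 ± 0.34, adjusted p = 0.00178). Leaving that replicate out did not end the call, but fitting only the compared groups did (adjusted p = 0.122). Zfp459, a zinc finger gene in a cluster of similar genes whose reads could be shared, was at 0.443 to 1.42 CPM in Notch1-/- and at 2.55 to 6.01 CPM in Notch1-/-Notch2-/- (2.23 ± 0.34). Tlr1, which pairs with Tlr2 to sense bacterial lipopeptides, rose from 0.0316 to 1.48 CPM in Notch1-/- to 6.91 to 12.2 CPM in Notch1-/-Notch2-/- (4.06 ± 0.67, adjusted p = 0.00279). In Notch2-/- it averaged 11.7 ± 7.29 CPM (SD, n = 5), with the lowest library at 0.931 CPM. Its log2 fold change there against control was 2.13 ± 0.61 and did not pass (adjusted p = 0.151). Without the libraries above 100 CPM of Xist, the call of Tlr1 in the double mutants ended (adjusted p = 0.0606). Plekhd1 rose too, from 0.597 ± 0.209 to 3.81 ± 3.17 CPM (2.67 ± 0.43).

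**Figure D2:**
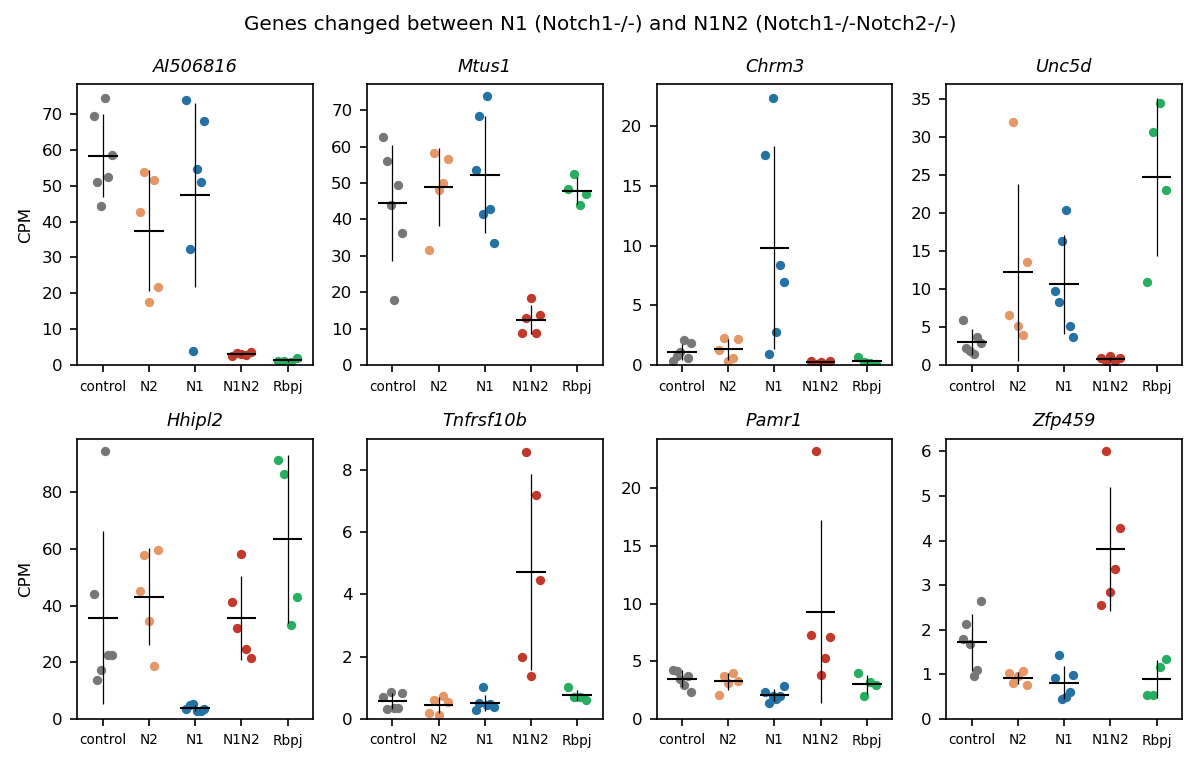
CPM of 8 genes in every library of the 5 genotypes (N1 for Notch1-/-, N1N2 for Notch1-/-Notch2-/-, N2 for Notch2-/-, Rbpj for Rbpj-/-), with points for libraries, horizontal bars for means and vertical bars for 1 SD, drawn no lower than 0. AI506816 is low in N1N2 (2.55 to 3.51 CPM) and Rbpj libraries, while Hhipl2 is low in N1 libraries (2.71 to 5.31 CPM).

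No canonical target of Notch signalling passed the test. Of 8 tested target genes none passed the edgeR test in either direction, and none passed by DESeq2 or limma voom. At an unadjusted p under 0.05 there was 1, against 11.6% of all genes, and their median log2 fold change was -0.19. Hes5, the target that reacts most directly to the pathway in neural progenitors, was already at 0.312 to 0.705 CPM in Notch1-/- and at 0.569, 0.530, 1.19, 0.519 and 0.333 CPM in Notch1-/-Notch2-/-. That is a log2 fold change of 0.29 ± 0.40, from a level well below the control mean of 4.09 ± 2.05 CPM (SD, n = 6). The promoter of Hes5 is shown because it carries the letters that Rbpj binds, so that its low level can be read beside them. Positions come from RefSeq on GRCm38.p6 (chr4:154960673-154960972, plus strand), 5′ to 3′, and capitals mark TGGGAA or its reverse complement TTCCCA.
Hes5: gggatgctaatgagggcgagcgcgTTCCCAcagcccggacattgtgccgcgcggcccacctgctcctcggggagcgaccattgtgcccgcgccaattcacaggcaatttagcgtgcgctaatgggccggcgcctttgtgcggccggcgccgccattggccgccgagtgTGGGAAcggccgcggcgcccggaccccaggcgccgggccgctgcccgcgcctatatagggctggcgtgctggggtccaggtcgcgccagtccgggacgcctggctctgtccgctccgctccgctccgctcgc
The letters occur at -82 and -226 from the start of the gene. They were found in 2 of the 5 target genes that the table held, and in 25.6% of 32851 promoters of the same length, so they are no rarity.

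Nrarp, a feedback inhibitor that binds the cleaved receptor, was at 1.78 CPM at the lowest, 7.29 at the median and 10.1 at the highest in Notch1-/- and at 7.55, 4.16, 7.35, 3.74 and 5.23 CPM in Notch1-/-Notch2-/- (-0.22 ± 0.31). Hey1, a repressor of the same family as Hes5, had 16.4 ± 6.00 and 14.7 ± 3.17 CPM (-0.16 ± 0.20), and Hey2 had 19.7 ± 11.0 and 25.9 ± 1.85 CPM (0.39 ± 0.25). Set beside this, and sharing the same Notch1-/- libraries, Notch1-/- against control had log2 fold changes of -2.99 for Hes5, -1.82 for Nrarp and -0.99 for Hey1. Hes1 was the target with the largest difference. It was at 1.09 CPM at the lowest, 6.58 at the median and 11.7 at the highest in Notch1-/-, and at 3.07, 3.26, 2.96, 1.39 and 2.87 CPM in Notch1-/-Notch2-/-. Its log2 fold change of -1.25 ± 0.40 did not pass (adjusted p = 0.196). It passed without Notch1-/- replicate 2, which held the 1.09 CPM (-1.47, adjusted p = 0.0292), and that library also set the sign of the list's median, which was 0.15 without it.

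Of 12 ligands and receptors, 1 rose, where 0.333% of all genes did. Dll3, a ligand that acts inside the same cell to dampen Notch signalling, was at 37.3 CPM at the lowest, 54.8 at the median and 62.6 at the highest in Notch1-/- and at 75.9, 104, 73.6, 95.1 and 82.9 CPM in Notch1-/-Notch2-/- (0.68 ± 0.15, adjusted p = 0.0409). The groups did not overlap. The median of the list was -0.13, or 0.16 without Notch1-/- replicate 2, and Jag1 (-0.46), Dll1 (0.18) and Notch3 (0.59) did not pass. Of 33 genes that process the receptors or act with them in the nucleus, 1 rose, again beside 0.333% of all genes. It was Mfng, a fringe glycosyltransferase that modifies Notch receptors in the Golgi, at 0.419 to 1.80 CPM in Notch1-/- and at 2.27, 3.87, 4.78, 4.15 and 1.90 CPM in Notch1-/-Notch2-/- (1.67 ± 0.38, adjusted p = 0.0416). Both calls were close to the threshold. Dll3 kept its call without Notch1-/- replicates 2 and 5 and Notch1-/-Notch2-/- replicates 1 and 3, and lost it without each of the other 7 libraries (adjusted p up to 0.167). Mfng kept it without Notch1-/- replicates 2 and 3 and Notch1-/-Notch2-/- replicates 1 and 5, and lost it without each of the other 7 (up to 0.135). Both also failed with replicate number as a block, with Xist as a covariate and with only the compared groups in the fit. They failed without the libraries above 100 CPM of Xist too. Over these alternatives the adjusted p reached 0.459 for Dll3 and 0.346 for Mfng.

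**Figure D3:**
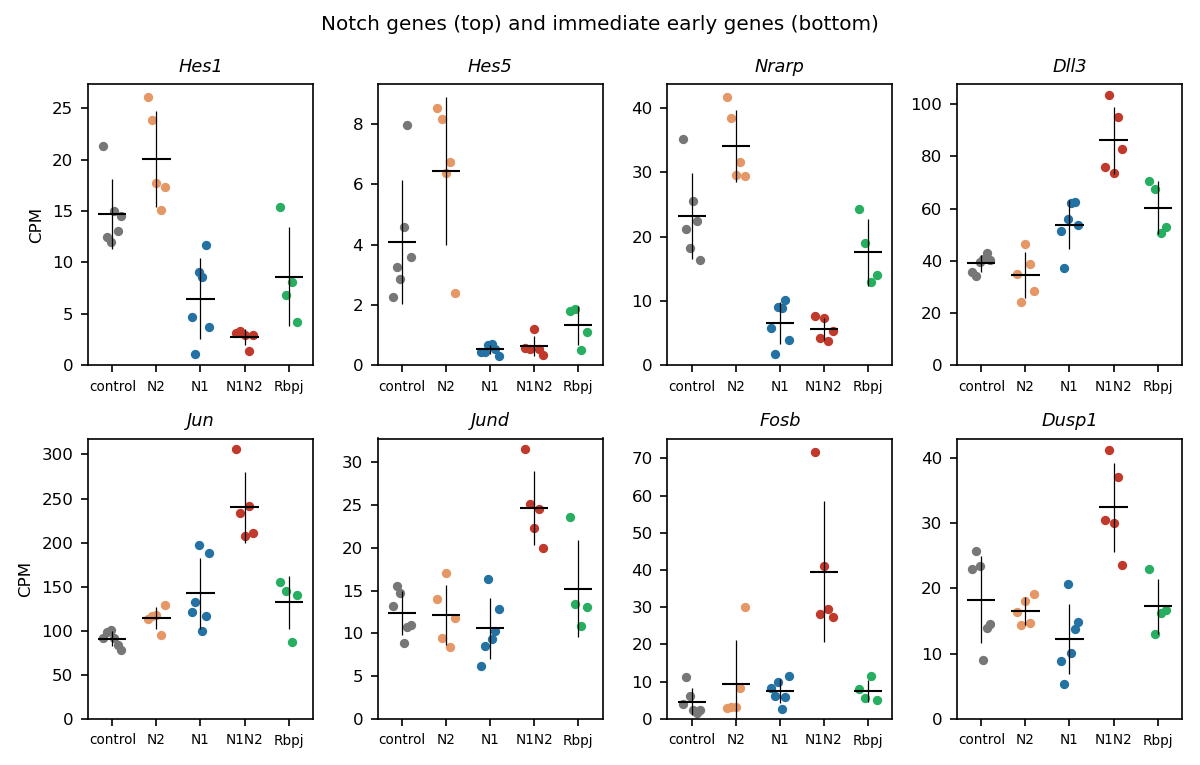
CPM of 4 Notch genes (top) and 4 immediate early genes (bottom) in every library, with points for libraries, horizontal bars for means and vertical bars for 1 SD, drawn no lower than 0. Hes5 is at or below 1.19 CPM in all N1 and N1N2 libraries, and the N1N2 libraries lie above the N1 libraries for Dll3, Jun, Jund, Fosb and Dusp1.

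Growth factors and stress switch on genes of the AP-1 transcription factor and its relatives within minutes. Of 24 immediate early and dissociation stress genes 4 rose and none fell, against 0.333% and 0.307% of all genes. At an unadjusted p under 0.05, 10 were higher and 2 lower, against 5.06% and 6.56% of all genes. The median log2 fold change was 0.58 against -0.03 over all genes, and 19 had positive and 5 negative values. Jund was at 6.24 CPM at the lowest, 9.81 at the median and 16.4 at the highest in Notch1-/- and at 31.5, 25.2, 22.3, 24.6 and 20.0 CPM in Notch1-/-Notch2-/- (1.22 ± 0.24, adjusted p = 0.0170). Jun was at 99.6 to 198 CPM in Notch1-/- and at 307, 234, 208, 241 and 211 CPM in Notch1-/-Notch2-/- (0.75 ± 0.17, adjusted p = 0.0383). Fosb was at 2.64 to 11.6 CPM in Notch1-/- and at 71.8, 28.2, 41.2, 29.6 and 27.4 CPM in Notch1-/-Notch2-/- (2.41 ± 0.57, adjusted p = 0.0469). Dusp1, a phosphatase that switches off stress kinases, went from 5.28 to 20.7 CPM in Notch1-/- to 30.5, 41.2, 29.97, 37.0 and 23.5 CPM in Notch1-/-Notch2-/- (1.40 ± 0.27, adjusted p = 0.0193). All 4 genes separated the 2 groups, as 0.8% of all genes did in that direction, but the summed level of the list did not. It was 844 to 2057 CPM in Notch1-/- and 1663 to 2170 CPM in Notch1-/-Notch2-/-. Fos, with log2 fold change 1.06 (adjusted p = 0.197), did not pass, and Egr1 had a value of the opposite sign (-0.91, adjusted p = 0.247). In Notch2-/- against control the median was -0.00. Genes of this list are also known to respond when tissue is dissociated and sorted, and the part of that in the result was not tested. Ppp1r15a, a stress gene outside the list that lets translation resume, rose from 21.4 ± 4.92 to 39.1 ± 6.64 CPM (0.87 ± 0.21, adjusted p = 0.0493).

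The calls of these genes differed in firmness. Jund held in each leave-one-out fit save that without Notch1-/-Notch2-/- replicate 2 (adjusted p = 0.0543). Dusp1 lost its call without Notch1-/- replicate 1, Notch1-/-Notch2-/- replicate 2 or Notch1-/-Notch2-/- replicate 4 (up to 0.0797). Jun passed without Notch1-/- replicates 2, 3 and 6 or Notch1-/-Notch2-/- replicate 3 and failed without each of the other 7 (up to 0.110). Fosb passed in 1 of the 11 fits, that without Notch1-/-Notch2-/- replicate 3 (up to 0.125 in the others), and Ppp1r15a in none (up to 0.170). All 5 failed when the libraries above 100 CPM of Xist were left out. The list's median stayed between 0.38 and 0.70 over the 11 fits, and 1 of its genes fell without Notch1-/- replicate 2.

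The promoters of Dusp1 and Ppp1r15a are shown because both carry the full cyclic AMP response element TGACGTCA, a palindrome read the same on both strands, which CREB and AP-1 related factors bind. They come from RefSeq on GRCm38.p6, 5′ to 3′ on the strand of the gene, with the element in capitals (Dusp1: chr17:26508423-26508722, minus strand; Ppp1r15a: chr7:45526219-45526518, minus strand).
Dusp1: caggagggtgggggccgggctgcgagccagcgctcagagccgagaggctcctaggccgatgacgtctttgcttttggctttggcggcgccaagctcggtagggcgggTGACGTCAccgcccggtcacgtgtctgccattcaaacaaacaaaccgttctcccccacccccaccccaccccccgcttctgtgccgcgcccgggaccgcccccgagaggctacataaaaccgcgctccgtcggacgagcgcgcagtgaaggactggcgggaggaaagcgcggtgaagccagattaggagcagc
Ppp1r15a: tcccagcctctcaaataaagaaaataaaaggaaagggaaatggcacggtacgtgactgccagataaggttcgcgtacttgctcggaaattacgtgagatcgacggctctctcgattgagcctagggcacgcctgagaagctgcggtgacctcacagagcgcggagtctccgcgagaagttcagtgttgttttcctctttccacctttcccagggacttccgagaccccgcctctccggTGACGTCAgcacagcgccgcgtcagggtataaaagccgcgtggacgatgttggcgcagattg
The element starts at -143 in Dusp1 and at -12 in Ppp1r15a. Of the 5 genes of this kind that rose, these 2 held it in the window of 300 bases, and so did 588 of 32851 promoters (1.79%).

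Other outputs of growth factor signalling were followed with a list of MAPK target and feedback genes. None of 17 genes of MAPK output passed the edgeR test, and DESeq2 called 1 lower and limma voom 5. At an unadjusted p under 0.05, 7 were lower and none higher, against 6.56% and 5.06% of all genes. Their median log2 fold change was -0.40, with 15 negative and 2 positive values. Dusp6, a phosphatase specific for ERK, averaged 169 ± 65.3 CPM in Notch1-/- and 80.8 ± 25.0 CPM in Notch1-/-Notch2-/- (-1.07 ± 0.27, adjusted p = 0.0694), and Spry4, a feedback inhibitor of receptor tyrosine kinases, averaged 294 ± 115 and 155 ± 72.4 CPM (-0.92 ± 0.32). Without Notch1-/- replicate 2, 4 of the 17 fell. Ccnd1, which encodes cyclin D1, was at 1852 ± 854 and 1072 ± 252 CPM (-0.79 ± 0.31, adjusted p = 0.296).

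No gene of the cell division lists passed the test. All 29 genes of DNA replication and all 26 of mitosis had positive log2 fold changes, with medians of 0.42 and 0.39, and none passed. 8 and none of them were higher at an unadjusted p under 0.05, against 5.06% of all genes. DESeq2 called 1 of the first list and limma voom none of either. Notch1-/- replicate 2 had 778 CPM of replication genes and 1010 CPM of mitosis genes against at least 2066 and 3568 in the other 10 libraries, and the medians were 0.24 and 0.20 without it. Outside the lists, Pclaf, which binds the replication clamp PCNA, rose from 69.4 ± 28.6 to 177 ± 66.1 CPM (1.35 ± 0.32), and Cdk2, the kinase that starts S phase, from 56.1 ± 8.25 to 82.6 ± 12.6 CPM (0.56 ± 0.12). Their ranges did not overlap. Slc1a5, a carrier of glutamine, rose from 15.7 ± 6.30 to 35.8 ± 11.0 CPM (1.19 ± 0.27). Of the 11 leave-one-out fits, Pclaf passed only without Notch1-/- replicate 2 or Notch1-/-Notch2-/- replicate 3 (adjusted p up to 0.189 in the others). Cdk2 passed without Notch1-/- replicates 2 or 3 or Notch1-/-Notch2-/- replicates 1, 3 or 5 (up to 0.135), and Slc1a5 without Notch1-/- replicates 2 or 5 or Notch1-/-Notch2-/- replicate 3 (up to 0.182). Of 20 hypoxia and glycolysis genes 7 were higher and 1 lower at an unadjusted p under 0.05, against 5.06% and 6.56% of all genes. None passed by edgeR or DESeq2 and 1 rose by limma voom, and the median was 0.60. Ldha, lactate dehydrogenase, had 298 ± 123 and 528 ± 238 CPM, with 747 and 811 CPM in Notch1-/-Notch2-/- replicates 2 and 4.

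Those 2 libraries also carried several of the largest rises. Robo2, a receptor for the guidance cue Slit, rose from 3.09 ± 1.30 to 13.7 ± 11.9 CPM (2.15 ± 0.47, adjusted p = 0.0367), with 3.91, 31.7, 2.54, 17.9 and 12.5 CPM in the Notch1-/-Notch2-/- libraries. Epha2, an ephrin receptor, was at 1.25, 12.4, 0.443, 9.59 and 4.02 CPM and at most 1.19 CPM in Notch1-/-. Lpar4, a lysophosphatidic acid receptor, was at 7.09, 67.1, 6.56, 37.8 and 12.8 CPM against 3.48 to 8.35 CPM. All 3 were highest in replicates 2 and 4, and their groups overlapped. Robo2 kept its call without Notch1-/- replicates 2 or 5 or Notch1-/-Notch2-/- replicates 1 or 3 (adjusted p up to 0.203 without another library). Lpar4 kept it without Notch1-/- replicate 2 or Notch1-/-Notch2-/- replicates 1, 3 or 5 (up to 0.233). Epha2 lost it without Notch1-/- replicates 1 or 4 or Notch1-/-Notch2-/- replicates 2 or 4 (up to 0.110). Of 34 axon guidance genes Robo2 alone rose and Unc5d alone fell, against 0.333% and 0.307% of all genes, at a median of -0.23. Unc5a (-1.10) and Unc5b (-1.35), the relatives of Unc5d, had negative values that did not pass.

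S1pr1, Tmem100 and Fgf1 fell as well. S1pr1, a receptor for sphingosine-1-phosphate, was at 8.02 CPM at the lowest, 13.6 at the median and 19.0 at the highest in Notch1-/- and at 6.55, 4.77, 7.74, 4.51 and 6.33 CPM in Notch1-/-Notch2-/- (-1.17 ± 0.26, adjusted p = 0.0407). Control libraries were at 56.5 ± 21.6 CPM and Rbpj-/- libraries at 15.8 ± 4.60 CPM (SD). Tmem100, a membrane protein that BMP signalling induces in endothelium, fell from 120 ± 43.8 to 50.9 ± 20.7 CPM (-1.24 ± 0.29), from 249 ± 42.0 CPM in control. Fgf1, a fibroblast growth factor, fell from 9.01 ± 1.36 to 3.39 ± 1.74 CPM (-1.41 ± 0.30). These ranges did not overlap. Of the 11 leave-one-out fits, S1pr1 passed without Notch1-/- replicates 2 or 6 or Notch1-/-Notch2-/- replicate 3 (adjusted p up to 0.151 in the others), Tmem100 without replicate 3 of either group (up to 0.191) and Fgf1 without Notch1-/- replicates 2, 3 or 4 or Notch1-/-Notch2-/- replicate 3 (up to 0.0913).

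Other gene programs were measured in the same way. Of 19 mesenchymal glioma genes none passed by edgeR, DESeq2 or limma voom, and 3 were higher at an unadjusted p under 0.05, against 5.06% of all genes. The median was 0.74, or 0.35 without Notch1-/-Notch2-/- replicate 2. Cd44, a hyaluronan receptor of mesenchymal cells, had 14.1 ± 12.8 CPM in Notch1-/- and 46.3 ± 48.2 CPM in Notch1-/-Notch2-/-, a spread as wide as its mean. Of 17 p53 targets Tnfrsf10b alone rose and none fell, against 0.333% and 0.307% of all genes, at a median of 0.09. Mdm2, which keeps p53 low, had 86.8 ± 16.8 and 99.6 ± 9.60 CPM. Of 20 proteoglycan, tenascin and matrix genes 1 rose, where 0.333% of all genes did. It was Hapln4, a link protein of the extracellular matrix, from 11.2 ± 2.67 to 22.0 ± 7.00 CPM (0.98 ± 0.23, adjusted p = 0.0493). It passed in 1 of the 11 leave-one-out fits, that without Notch1-/-Notch2-/- replicate 3 (up to 0.224 in the others). Of 21 glutamate receptor genes none passed by the 3 tools, and 5 were lower at an unadjusted p under 0.05, against 6.56% of all genes. Negative values were found for 19, at a median of -0.34. Cdkn1c, a CDK inhibitor that marks cells leaving the cycle, had 3.69 ± 3.24 and 15.4 ± 7.50 CPM (2.06 ± 0.52), which did not pass (adjusted p = 0.0699).

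**Figure D4:**
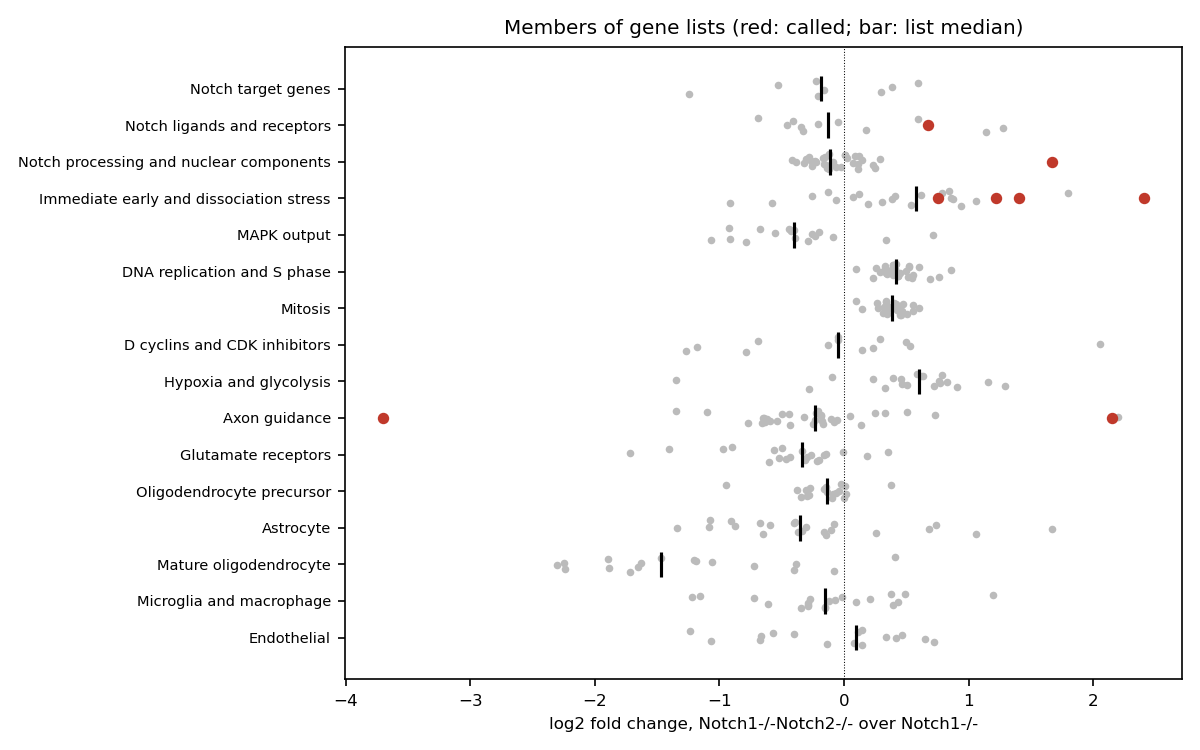
Log2 fold change of Notch1-/-Notch2-/- over Notch1-/- for the tested members of 16 gene lists, with grey points for genes that did not pass, red for those that did and black bars for list medians. Immediate early genes have a median of 0.58 with 4 members that passed, and mature oligodendrocyte genes have a median of -1.47 with none.

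Markers of other cells were followed as measured values. 17 mature oligodendrocyte genes had a median log2 fold change of -1.47, 9 of them lower at an unadjusted p under 0.05, against 6.56% of all genes. None passed the edgeR test (DESeq2 called 2 lower and limma voom none). Their summed level was 2543, 21770, 3478, 5424, 6526 and 4481 CPM in Notch1-/- and 5124, 3148, 6629, 2429 and 4678 CPM in Notch1-/-Notch2-/-. The ranges overlapped, and the median was -0.98 without Notch1-/- replicate 2. Microglia and macrophage markers summed to 74.1 to 314 CPM and 66.2 to 202 CPM in the 2 groups, below the control range of 416 to 1714 CPM. None of 21 passed by any of the 3 tools, with 2 lower at an unadjusted p under 0.05, against 6.56% of all genes. Endothelial markers summed to 21.8 to 70.1 and 34.6 to 57.1 CPM. Mural and fibroblast markers were at 1500 CPM in Notch1-/- replicate 5 and 397 CPM in Notch1-/-Notch2-/- replicate 5, against at most 104 CPM in the other 9 libraries. Among 9 infiltrating myeloid genes 1 rose, where 0.333% of all genes did. It was Cd14, from 0.239 ± 0.105 to 1.31 ± 0.863 CPM (2.45 ± 0.52, adjusted p = 0.0343), and the list's sum was 1.83 to 12.9 CPM and 2.01 to 15.8 CPM. Cd14 lost its call in 7 of the 11 leave-one-out fits and kept it without Notch1-/- replicates 2 or 6 or Notch1-/-Notch2-/- replicates 3 or 5 (up to 0.151). The part of these cells in the changes above was not tested beyond 2 covariates: with the microglia score in the fit 110 genes changed, 91 of them among the 100, and with the mature oligodendrocyte score 78 changed, 49 of them among the 100.

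Interferon genes varied widely within both groups. Summed levels of 25 interferon gamma response genes were 6009, 27170, 207, 1408, 220 and 12620 CPM in Notch1-/- and 425, 334, 250, 9586 and 5282 CPM in Notch1-/-Notch2-/-. None passed, at a median of -1.16, or -0.18 without Notch1-/- replicate 2. The 12 MHC class II genes had a median of -1.89 and also none that passed by edgeR, DESeq2 or limma voom. At an unadjusted p under 0.05 there were 0 interferon gamma and 1 MHC class II gene, against 11.6% of all genes.

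Some of the changed genes lay on the chromosome of Notch2 itself. Of 756 genes tested on chromosome 3, 11 changed (1.46%), against 0.64% of all genes. Chromosome 1 had as many, 11 of 932 (1.18%). Within 20 Mb of the start of Notch2 it was 7 of 380 (1.84%), against 0.610% elsewhere. Notch2 loss in the presence of Notch1 can be set beside this, since Notch2-/- and control share no library with the double mutant comparison. There, 46 genes changed in all (0.295%), 12 on chromosome 3 (1.59%, Notch2 itself included), and 11 within 20 Mb of Notch2 (2.89%, against 0.230% elsewhere). Chromosome 17 had more in that comparison, 13 of 782 (1.66%), and 5 in the double mutant comparison (0.639%). All 11 chromosome 3 genes that changed in the double mutant comparison had the same sign in Notch2-/- against control, compared with 46 of the 89 on other chromosomes. Of these 11, only 5830417I10Rik, Scnm1 and Ccna1 passed there. The log2 fold changes of the others ranged in size from -0.10 for Mfn1 to -0.76 for Fam241a. For Notch1-/- against control, where Notch2 was not targeted, 35.5% of the genes within 20 Mb of Notch2 changed against 26.7% of all genes. Single libraries moved these counts. The 11 genes of chromosome 3 became 4 without Notch1-/- replicates 1, 4 or 5 or Notch1-/-Notch2-/- replicate 2, 5 to 7 without Notch1-/- replicates 3 or 6 or Notch1-/-Notch2-/- replicates 1, 4 or 5, and 23 without Notch1-/-Notch2-/- replicate 3. For Notch2-/- against control the 46 became 21 to 28 without control replicates 2, 3 or 5 or Notch2-/- replicates 1, 2, 4 or 5, and 83 without control replicate 4, with 6 to 13 of them on chromosome 3.

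**Figure D5:**
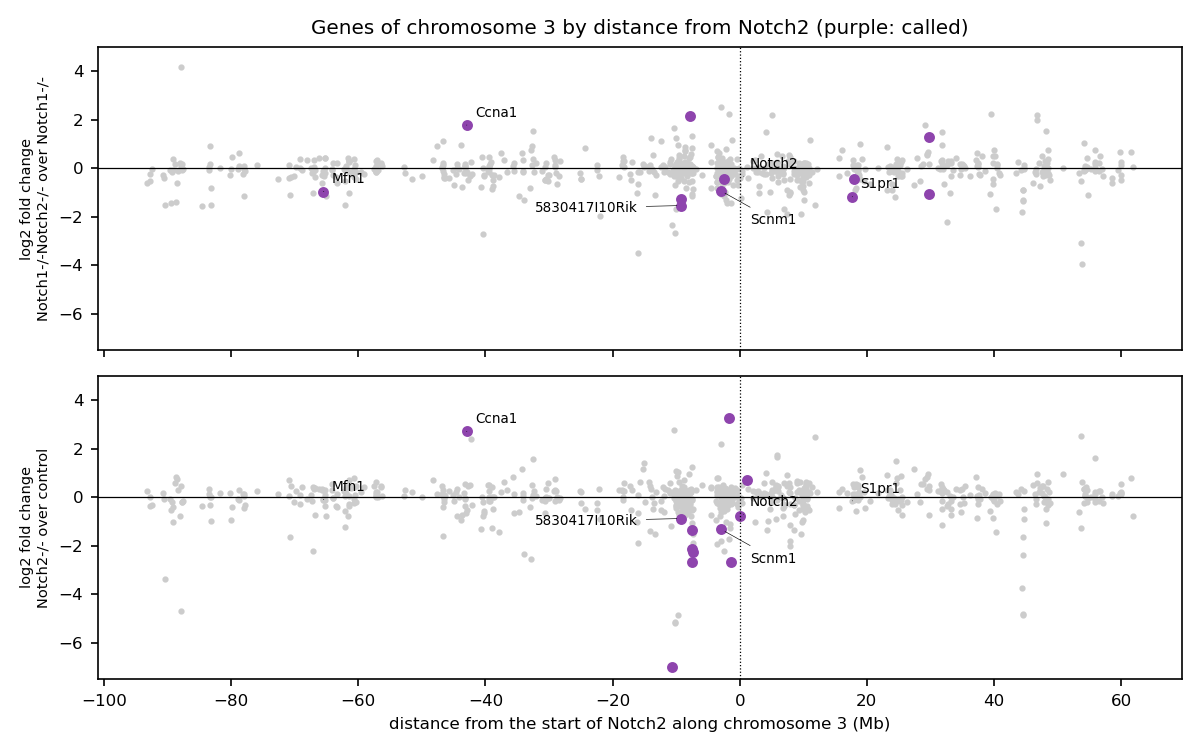
Log2 fold change of each tested gene on chromosome 3 by its distance from the start of Notch2 in Mb, for Notch1-/-Notch2-/- over Notch1-/- (top) and Notch2-/- over control (bottom), with purple points for genes that passed. 5830417I10Rik, Scnm1 and Ccna1 pass in both, with the same sign.

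4 genes changed in both settings, all in the same direction, which is 4% of the 100 and 8.7% of the 46. 5830417I10Rik, a transcribed pseudogene (chr3:88777057-88829371), was at 63.7 CPM at the lowest, 73.3 at the median and 94.1 at the highest in Notch1-/- and at 26.4, 26.0, 28.1, 24.2 and 27.2 CPM in Notch1-/-Notch2-/- (-1.53 ± 0.16, adjusted p = 1.23e-05). It fell in Notch2-/- too, from 52.0 ± 12.6 to 28.2 ± 5.43 CPM (-0.89 ± 0.16, adjusted p = 0.00871). Its position overlaps that of 1500004A13Rik, which fell as well (-1.28 ± 0.21), and since the strand setting of the counting is not given their counts cannot be fully separated. Scnm1, a splicing factor (chr3:95129719-95134050), was at 24.5, 30.6, 21.6, 24.3, 28.3 and 23.0 CPM in Notch1-/- and at 13.3, 15.2, 11.4, 15.2 and 11.1 CPM in Notch1-/-Notch2-/- (-0.94 ± 0.20, adjusted p = 0.0365), and fell in Notch2-/- by 1.34 on the log2 scale (adjusted p = 0.00288). Ccna1, a cyclin of the germ line (chr3:55045469-55057634), was at 0.602 to 4.90 CPM in Notch1-/- and at 11.5, 8.03, 8.70, 9.75 and 7.69 CPM in Notch1-/-Notch2-/- (1.78 ± 0.33, adjusted p = 0.0123). In Notch2-/- it rose from 1.45 ± 0.504 to 9.44 ± 2.63 CPM (2.70 ± 0.34, adjusted p = 5.47e-04). Gm6756, a transcribed pseudogene picked after its values were seen, rose from at most 0.0713 CPM to 0.848 to 1.72 CPM (4.83 ± 0.78) and likewise in Notch2-/- (4.26 ± 0.75). The Scnm1 call passed in 3 of the 11 leave-one-out fits (adjusted p up to 0.0815 in the others), without Notch1-/- replicates 2 and 3 or Notch1-/-Notch2-/- replicate 3, and the other 3 genes passed in all 11. Without the Xist-positive libraries, 5830417I10Rik and Gm6756 kept their calls in the double mutants (the highest adjusted p-values over the settings other than leaving out 1 library were 0.00710 and 0.0341) but not in Notch2-/-.

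Over all genes, 7 of 15617 (0.0448%) separated the 10 libraries labelled as lacking Notch2 from the 12 control and Notch1-/- libraries. They were these 4, H2bc18 and Rwdd3 on chromosome 3, and Tfb1m, so that 5 of the 7 lay on chromosome 3. The 4 Rbpj-/- libraries, which are not labelled as lacking Notch2, were left out of that count, and with them 3 of the 7 still separated: 5830417I10Rik, Ccna1 and Tfb1m. For the other 4 the Rbpj-/- libraries reached into the range of the libraries without Notch2, up to 0.746 CPM for Gm6756 (lowest without Notch2 0.704), 0.348 for H2bc18 (0.291) and 7.00 for Rwdd3 (5.37), and down to 15.2 CPM for Scnm1 (highest without Notch2 16.3). H2bc18 was at 0.291 to 0.538 CPM in the 10 libraries and at most 0.151 CPM in control and Notch1-/-. Tfb1m, a mitochondrial rRNA methyltransferase, separated by a narrow margin, at 9.10 to 11.6 CPM against 11.7 to 16.9 CPM in control and Notch1-/- and 12.4 to 16.2 CPM in Rbpj-/-.

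Finally, whether Notch2 loss had a different effect without Notch1 than with it was tested directly as the interaction of both losses. It passed for 12 genes (0.0768%), 3 with a positive (0.0192%) and 9 with a negative value (0.0576%), none on chromosome 3, and 10 of them were among the 100. The interaction contains the double mutant comparison and uses the same libraries, so that overlap is partly built in. Unc5d had the smallest p: Notch2 loss went with a log2 fold change of 2.02 ± 0.50 in the presence of Notch1 (adjusted p = 0.0951) and -3.70 in its absence, a difference of -5.71 ± 0.76 (adjusted p = 0.00130). Its level was 3.01 ± 1.65 CPM in control and 12.2 ± 11.6 CPM in Notch2-/- (SD). Mtus1 (0.14 against -2.07), Chrm3 (0.25 against -5.43), AI506816 (-0.64 against -3.96), Cpne8 (0.76 against -2.10), Zfp459 (-0.89 against 2.23) and Tnfrsf10b (-0.33 against 3.18) also differed, with adjusted p-values of 0.00507 to 0.0413. For Hhipl2 the interaction value of 2.96 ± 0.61 had an adjusted p of 0.0589 and did not pass. The interaction passed for none of the 3 Notch lists. Its count was 227 without Notch1-/- replicate 2, 28 without Notch1-/-Notch2-/- replicate 3, and 5 to 7 without Notch1-/- replicate 4, Notch1-/-Notch2-/- replicates 2 or 4, or Notch2-/- replicates 1 or 2.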

How the data were processed

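Sorted GFP-positive glioma cells were profiled by RNA sequencing, with TruSeq Stranded RNA LT libraries per the labels' protocols. Reads were aligned to mm10 with STAR, per the submitters' processing notes. No source used here names the counting tool or its strand setting. The authors deposited raw counts per gene for 26 libraries. Of 24454 genes listed, 24374 matched RefSeq GRCm38.p6 by Entrez identifier, and the other 80 held 0.348% of counts.

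Genotypes and replicate numbers come from the titles. The filterByExpr step left 15617 genes, and totals were scaled by TMM. A single model with a term per genotype was fitted to all 26 libraries and tested by quasi-likelihood in edgeR 4.0.16 (R 4.3.3), with Benjamini-Hochberg adjustment over all tested genes. A gene rose, fell or changed where its adjusted p was under 0.05. Standard errors were derived from the fold change and the F statistic. The common dispersion gave a biological coefficient of variation of 0.368. CPM used TMM-scaled totals. The counts of replicate pairs of a group differed by at least 42.3 times sampling noise (chi-square per gene, 25 pairs). Each library was counted as 1 sample, though that value cannot tell separate animals from separate preparations of 1 animal. Some libraries outside the main comparison held both Xist and Ddx3y. These were Notch2-/- replicate 4 (1917 and 74.1 CPM), control replicate 6 (412 and 64.0 CPM) and Notch2-/- replicate 3 (71.3 and 45.9 CPM). Whether they hold cells of more than 1 animal was not tested. The setting without libraries above 100 CPM of Xist kept Notch2-/- replicate 3. DESeq2 1.42.0 and limma 3.58.1 were alternatives. On simulated counts of 15479 genes for this comparison, 28%, 50%, 82% and 96% of genes changed 1.5, 2, 4 and 8-fold were found, and 4 of 132 calls were false. These counts were drawn independently per gene with the spread of the fit, with no library set apart and no Xist imbalance between groups. The rates therefore do not cover such differences among the real libraries.

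The rule for naming took Notch1, Notch2, Rbpj, Trp53 and the 3 Notch lists, the largest rises and falls that passed without overlap at a mean log2 CPM of 1 or more (15 each way), the 10 smallest p, up to 4 members of each gene list by adjusted p, or the 2 most abundant where none passed, and up to 10 interaction genes. The largest changes exclude predicted genes, pseudogenes, Xist and genes on the Y chromosome. Outside this rule, and picked after their values were seen, are Cd44, Cdk2, Cdkn1c, Dusp6, Egr1, Epha2, Fam78b, Fos, Gm6756, H2bc18, Lpar4, Mdm2, Plekhd1, Rnf151, Rwdd3, Scnm1, Spry4, Tfb1m, Tlr1, Unc5a and Unc5b. The comparison, its 41 gene lists and these rules were chosen with earlier results of these data known.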

Additional observations from a re-analysis of the deposited data

Results flagged for a closer look

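In 11 of 90 groups of library values examined, of 5 or 6 libraries each, 1 library lay far from the others of its genotype. Chance alone gives about 1 in 20 for independent values with a normal spread. The CPM used here were not shown to be such values, and several of the 11 share a library, so that rate may not apply. Among Notch1-/- libraries, replicate 2 had the highest 1500004A13Rik (47.3 CPM), the lowest Pclaf (15.4 CPM) and Cdk2 (40.3 CPM), and a summed mature oligodendrocyte level of 21770 CPM. Replicate 3 had the highest Tnfrsf10b (1.01 CPM). Replicate 5 had the highest Robo2 (5.59 CPM) and 1500 CPM of mural and fibroblast markers. Among Notch1-/-Notch2-/- libraries, replicate 2 had the highest Pamr1 (23.2 CPM), replicate 3 the highest Hes5 (1.19 CPM), replicate 4 the lowest Hes1 (1.39 CPM) and replicate 5 the highest mural and fibroblast sum (396.5 CPM).

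The effect of Notch2 loss differed between tumours without and with Notch1 for 12 genes by the test of the interaction. The difference of log2 fold changes was -5.71 for Unc5d, -7.74 for Rps2, 3.12 for Zfp459, -2.21 for Mtus1, -2.86 for Cpne8, -5.68 for Chrm3, -3.32 for AI506816, -1.25 for Rab6b, -1.99 for Enpp3, 3.51 for Tnfrsf10b, -1.44 for Fam78b and 4.54 for Rnf151. Rps2 encodes a ribosomal protein with near-identical copies elsewhere in the genome, so its counts are uncertain. It was at 49.1 and 94.4 CPM in Notch1-/- replicates 1 and 5, at 2.22 to 3.19 CPM in the other 4 and at 3.03 to 4.64 CPM in Notch1-/-Notch2-/-, and averaged 75.8 ± 31.5 CPM in Notch2-/- (SD, n = 5) and 2.29 ± 0.468 CPM in control (SD, n = 6). Rnf151, its neighbour on chromosome 17, was at 0.356 to 1.03 CPM in Notch1-/- and 0.564 to 1.19 CPM in Notch1-/-Notch2-/-, with means of 0.0414 CPM in Notch2-/- and 0.922 CPM in control.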

How the results depend on the processing

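Leaving out 1 library at a time moved the number of genes changed in Notch1-/-Notch2-/- against Notch1-/- from 100 to between 18 and 199, that of Notch2-/- against control from 46 to between 21 and 83, and that of the interaction from 12 to between 5 and 227. In the same order, the counts were 278, 344 and 124 by the Wald test of DESeq2, 359, 1790 and 924 by limma voom with quality weights, and 10, 9 and 1 without the libraries above 100 CPM of Xist. The numbers of replicates did not pair the samples (correlations of same-numbered libraries -0.417 to 0.334 for the double mutants with Notch1-/-, and -0.0486 to 0.572 for Notch2-/- with control), and a replicate block gave 28, 25 and 6, and 3884 in place of 4174 genes for Notch1-/- against control. The double mutant count was 28 with Xist as a covariate, 61 with no filter, 40 with a filter of 10 CPM in at least 4 libraries, and 21 with only the compared groups in the fit. Notch2-/- against control gave 16 with that filter, 182 with only its own groups, 18 with the microglia score as a covariate and 19 with the mature oligodendrocyte score, which was added after the data were seen. The interaction gave 7 with Xist and 40 with the mature oligodendrocyte score as a covariate. For Notch1-/- against control, whose alternatives were all added then, the counts were 20 and 216 with these scores, 1280 without the Xist libraries, 6907 by limma voom, and 2815 to 5290 without 1 library. The causes were not tested. Of 5181 values of single genes under the alternatives none reversed its direction where called, and 1137 lost a call. The 5181 include values of genes that had not passed to begin with and so had no call to lose. The share of calls that were lost is therefore higher than these numbers give. Of the 100 changed genes, 8 kept their call under every alternative in which they were tested.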
